A study of Homo sapiens with 6 samples.

Results

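Integrins and laminins are the receptors and the matrix proteins through which epithelial cells hold on to a basement membrane. They were read here in SUM-LM1 breast cancer cells with and without activin B. Members were taken by gene symbol from the annotation of the array, as integrin subunits or laminin chains with a probe set that carries 1 symbol. This gave 34 genes, 25 integrin subunits and 9 laminin chains, of 19775 genes in all, and 93 probe sets of 54613. Where a gene had several probe sets, the one with the brightest average on the 6 arrays stood for it. The laminin chain LAMA3 was not analysed here.

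An integrin is a pair of 1 alpha and 1 beta subunit that spans the membrane, binds matrix or another cell outside and links to actin through adaptor proteins inside. The pairing decides the ligand: some pairs bind laminin, others collagen, and others the short peptide RGD in fibronectin, vitronectin or the latent form of TGF-beta. A laminin is a trimer of 1 alpha, 1 beta and 1 gamma chain that assembles into the sheet of the basement membrane. Both families are of interest in metastasis because carcinoma cells that have left their own basement membrane depend on new contacts with matrix to survive. In some cells TGF-beta signaling is known to raise the transcripts of several members.

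SUM-LM1 is a derivative of the SUM159 breast cancer line that colonizes the lung of mice, so both groups are 1 and the same cell line. Cells were seeded at 12500 cells per ml in HuMEC medium with BSA, in plates of ultra-low attachment where they have little matrix to adhere to. One group received recombinant human activin B, the homodimer of the INHBB subunit, at 50 ng/ml, and the other received 0.1% BSA in PBS as vehicle, both for 6 h. Each group held 3 replicates that the titles call biological, and 50 ng of RNA from each was labeled for Affymetrix Human Genome U133 Plus 2.0 arrays.

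Signals are on a log2 scale, and arrays correlated with each other at 0.9935 to 0.9961. Activin B replicate 3 stood apart on the first principal component, at 21.7. Values on this component rose with replicate number in both groups. They were -10.6, -6.0 and 5.70 for vehicle and -9.1, -1.7 and 21.7 for activin B. The markers VIM, CD44, AXL and CAV1 of a mesenchymal-like breast cancer line all lay in the upper quartile of the signals (a log2 signal above 7.70), whereas ESR1, PGR and CDH1 did not. None of the marker genes of epithelium, leukocytes, platelets, endothelium or muscle passed the test. Of these, 3 of the 5 epithelial markers, KRT8, KRT18 and KRT14, and 1 of the 4 endothelial ones, PECAM1, were in the upper quartile, while EPCAM was below the median. In all, 66 probe sets passed at an adjusted p under 0.05 by limma.

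The comparison asked whether the adhesion receptors and the laminin chains of the cancer cells were among the transcripts that responded to activin B within hours. No integrin or laminin gene passed: 0 of 34 were called higher and 0 lower by limma at an adjusted p under 0.05, where the rates over all genes were 0.101% and 0.091%. At an unadjusted p under 0.05 there were 4 of 34, ITGB8, LAMA2, ITGA4 and ITGAV, against 5.89% of all genes. The 3 values of one group all lay on one side of the other group in 5 of 34 genes, against 10.3% of all genes. These were ITGB8, ITGA4, ITGAV, ITGA2 and ITGAE.

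Most changes were small, among the members as among all genes. The median log2 change was -0.02 over the integrins and -0.03 over the laminins, beside -0.0017 over all genes. Of the 34 genes, 22 had a log2 change below 0 and 12 above, while 50.9% of all genes had one below 0. The change was under 0.2 in either direction for 33 of the 34, and for 19357 of all 19775 genes. In the upper quartile of signals it was so for 12 of 13 members and for 97% of all genes. The exception among the members was ITGB8. The 95% intervals of the 34 changes together ran from -0.47 to 0.35, so none reached a change of 0.5, which is 1.41-fold. For dim probe sets such an interval describes the signal, and a change of the transcript may be larger than the signal shows.

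**Figure D1:**
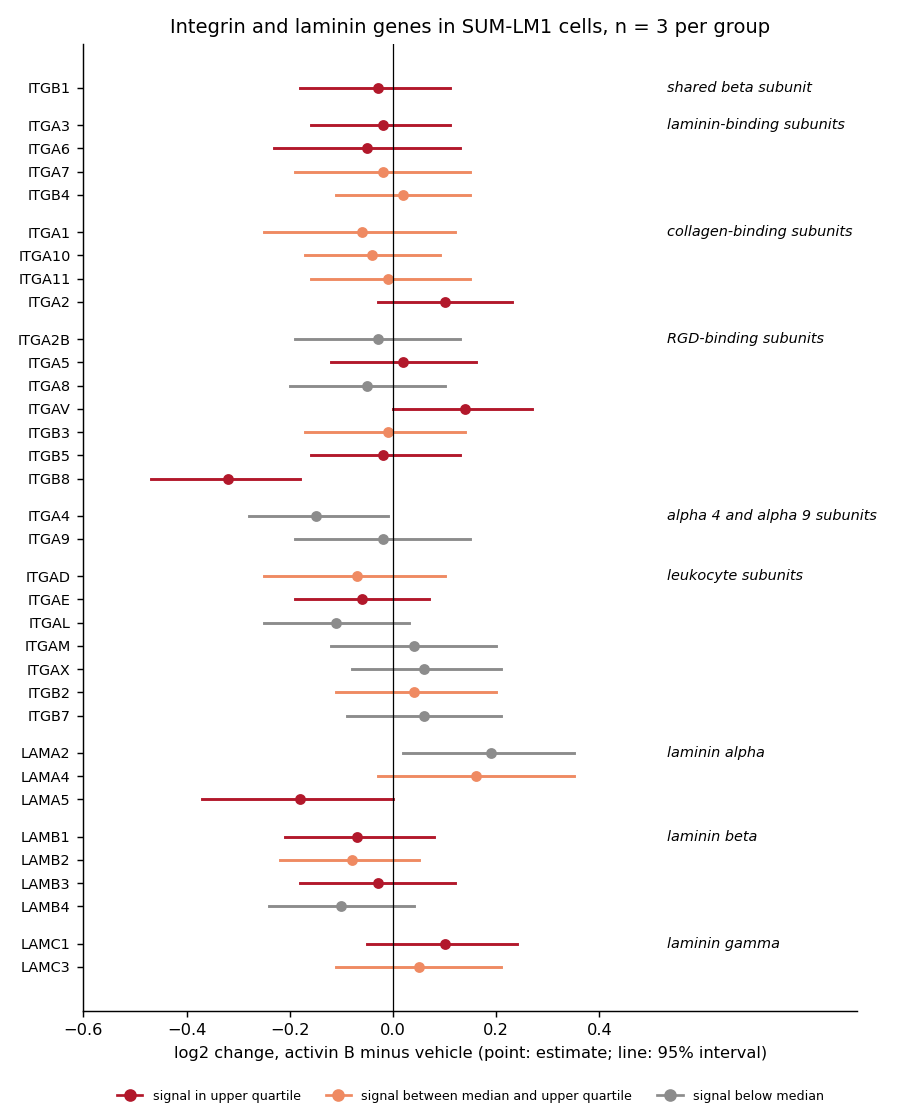
Log2 change of the 34 integrin and laminin genes, activin B minus vehicle, grouped by role. Points are estimates and lines are 95% intervals from limma (n = 3 per group), colored by where the gene's mean signal lay among all probe sets; ITGB8 lies lowest at -0.32 and LAMA2 highest at 0.19.

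Brightness set how much could be read. The representing probe sets of 13 genes lay in the upper quartile of all signals, those of 11 between the median (6.69) and the upper quartile, and those of 10 below the median. The 13 bright genes were ITGB1, ITGA2, ITGA3, ITGA5, ITGA6, ITGAE, ITGAV, ITGB5, ITGB8, LAMA5, LAMB1, LAMB3 and LAMC1. Their log2 changes ran from -0.32 to 0.14, and from -0.18 to 0.14 without ITGB8. The 10 dim genes ranged from -0.15 for ITGA4 to 0.19 for LAMA2.

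ITGB8, whose product pairs with the alpha V subunit and is known for binding and activating latent TGF-beta, had the lowest value. Its log2 signal was 9.89, 9.75 and 9.80 on the vehicle arrays and 9.52, 9.54 and 9.40 on the activin B arrays. All activin B arrays lay below all vehicle arrays. The means were 9.81 ± 0.07 and 9.49 ± 0.07 (SD, n = 3), a log2 change of -0.32 ± 0.07 (SE; 95% interval -0.47 to -0.18), 1.25-fold lower, with an adjusted p of 0.138 by limma. By size, 39 of all genes had a log2 change as low as this or lower (0.197%), and 32 of those in the upper quartile of signals (0.408%). Without activin B replicate 3 the change was -0.28 (adjusted p = 0.33).

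Only the bright probe set had a change of this size. The other 4 probe sets of ITGB8 all lay below the median signal, with log2 changes of -0.13, -0.12, -0.13 and 0.02, and in each of them the groups overlapped. When all 5 sets were averaged the change was -0.14 (adjusted p = 0.643).

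ITGAV, the alpha V subunit with which ITGB8 pairs, had a change of the opposite sign. It was at 10.34, 10.34 and 10.38 in vehicle and at 10.54, 10.44 and 10.49 in activin B. The arrays did not overlap, but the difference was small, at a log2 change of 0.14 ± 0.06 (SE; 95% interval 0.00 to 0.27), and did not pass (adjusted p = 0.934 by limma). ITGB5, another partner of alpha V that binds vitronectin, lay at 9.42, 9.56 and 9.63 in vehicle and at 9.50, 9.58 and 9.48 in activin B. Its groups overlapped, with a log2 change of -0.02. A probe set of ITGB5 of the cross-hybridizing kind read 8.07 on activin B replicate 3 and between 7.39 and 7.59 on the other arrays, so its change of 0.13 came from that array.

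The remaining RGD-binding subunits were close to 0. ITGA5, the fibronectin receptor subunit, had a log2 change of 0.02 ± 0.07 (SE) at a bright signal. ITGB3, the beta subunit of the platelet fibrinogen receptor and of alpha V beta 3, had -0.01, its platelet partner ITGA2B had -0.03 (-0.11 without activin B replicate 3) and ITGA8 had -0.05. The last 2 were dim, and the platelet markers PF4, PPBP, GP9 and GP1BA were likewise absent from the upper quartile of signals.

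**Figure D2:**
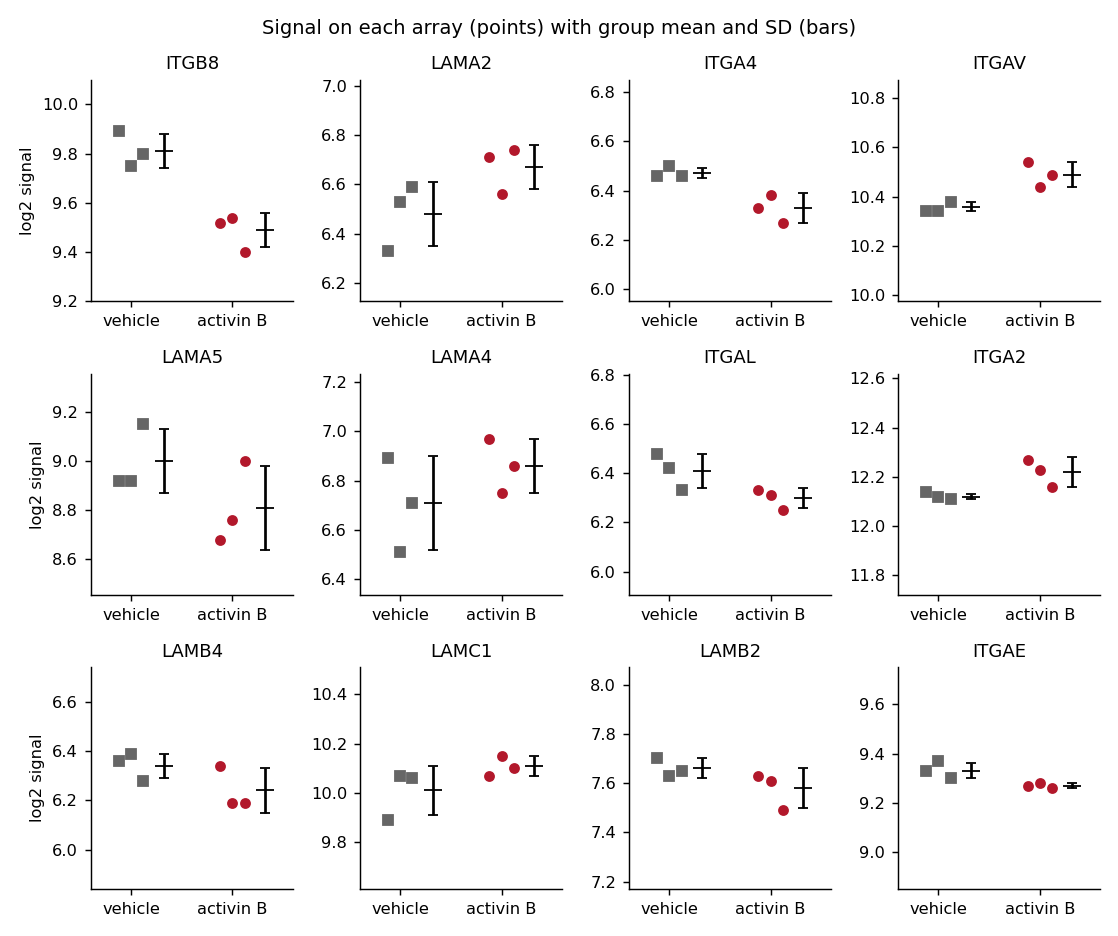
Log2 signal on each array for the 12 genes with the smallest unadjusted p, vehicle as grey squares and activin B as red circles, with the group mean and SD as bars; every panel spans 0.9 on the log2 axis. ITGB8, ITGA4, ITGAV, ITGA2 and ITGAE are those without overlap between the groups, and ITGB8 has the widest gap.

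ITGB1 is the beta subunit shared by most integrins, and its product is the integrin that the study blocked with an antibody in cells plated on laminin. Its log2 signal was 12.66, 12.72 and 12.71 in vehicle and 12.74, 12.72 and 12.53 in activin B. The lowest value was that of activin B replicate 3, and the groups overlapped. The log2 change was -0.03 ± 0.07 (SE; 95% interval -0.18 to 0.11; adjusted p = 0.999 by limma). It was 0.03 without activin B replicate 3 and -0.07 without activin B replicate 1. Among the other 6 probe sets of ITGB1, 2 were bright, with changes of 0.03 and -0.14. The latter had no overlap between groups and did not pass (adjusted p = 0.934).

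The subunits that bind laminin together with ITGB1 or ITGB4 stayed within 0.05 of 0 in their representing sets. ITGA3 read 8.19, 8.11 and 8.25 in vehicle and 8.19, 8.11 and 8.18 in activin B. ITGB4, the partner of alpha 6 in hemidesmosomes, read 7.35, 7.37 and 7.33 in vehicle and 7.38, 7.32 and 7.41 in activin B. ITGA7, which is best known from muscle, read 6.99, 6.83 and 6.70 in vehicle and 6.85, 6.71 and 6.89 in activin B. In all of these the groups overlapped.

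ITGA6, the alpha subunit of the main laminin receptors of epithelia and a surface marker used to sort mammary stem cells, was read differently by its 2 probe sets. The representing set gave 11.64, 11.56 and 11.41 in vehicle and 11.64, 11.50 and 11.31 in activin B, so its change was -0.05 ± 0.08 (SE, log2). That change was 0.03 without activin B replicate 3 and -0.13 without activin B replicate 1. The other set, also bright, gave 10.15, 10.19 and 10.17 in vehicle and 10.34, 10.43 and 10.35 in activin B. All 3 activin B arrays lay above the vehicle arrays in this set, with a log2 change of 0.21 ± 0.06 (SE), which did not pass (adjusted p = 0.596 by limma). Of the 59 probe sets that do not represent a gene it had the smallest adjusted p, and it was the 1 set of opposite sign to its gene's representing set at an unadjusted p under 0.05. Of the 59 sets, 4 had an unadjusted p under 0.05, where the rate over all probe sets was 5.28%, and 11 showed no overlap between groups, where it was 9.79%. None of the 59 passed, where the rate was 0.121%.

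**Figure D3:**
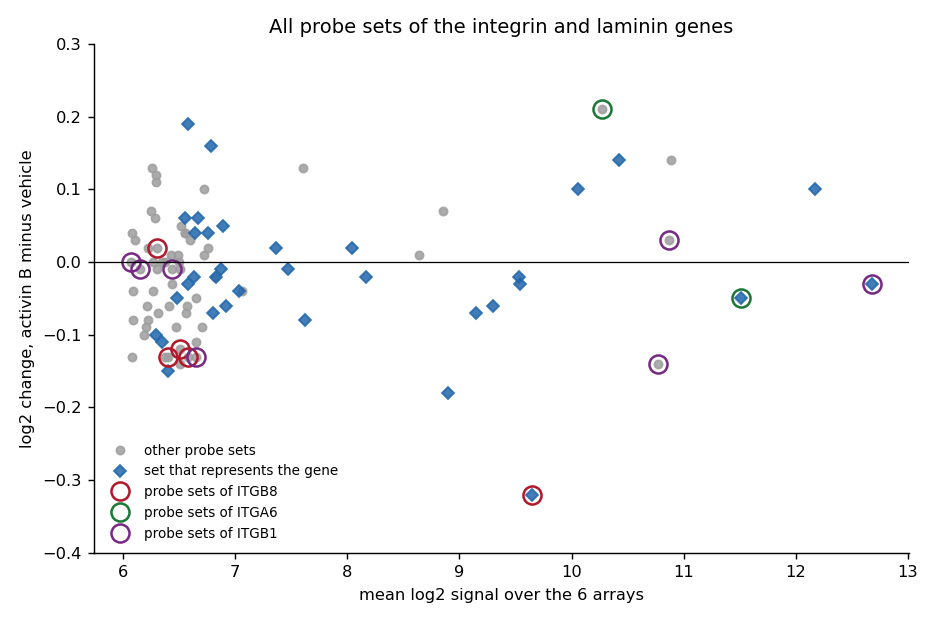
Log2 change against mean log2 signal for all 93 probe sets of the integrin and laminin genes. Blue diamonds are the sets that represent a gene and grey points the others; rings mark ITGB8, whose other sets lie at the dim end, ITGA6, whose 2 sets lie on either side of 0, and ITGB1.

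Among the collagen-binding subunits, ITGA2 was bright. It read 12.14, 12.12 and 12.11 in vehicle and 12.27, 12.23 and 12.16 in activin B. The groups did not overlap, at a log2 change of 0.10 ± 0.06 (SE), and its second probe set had 0.14. Neither set passed (adjusted p = 0.989 and 0.939 by limma). ITGA1, ITGA10 and ITGA11, the other collagen receptors, had log2 changes of -0.06, -0.04 and -0.01, with signals between the median and the upper quartile.

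Subunits that are typical of leukocytes were mostly dim, and none of the 4 leukocyte markers measured (PTPRC, CD3E, CD14 and CD53) lay in the upper quartile of signals. ITGAE, the alpha subunit that with beta 7 binds E-cadherin, was the exception in brightness. It read 9.33, 9.37 and 9.30 in vehicle and 9.27, 9.28 and 9.26 in activin B, so its change was -0.06 ± 0.06 (SE, log2). The groups did not overlap, although they were close. ITGAL, the alpha subunit of LFA-1, read 6.48, 6.42 and 6.33 in vehicle and 6.33, 6.31 and 6.25 in activin B. The log2 changes of ITGAD, ITGAM, ITGAX, ITGB2 and ITGB7 lay between -0.07 and 0.06. The lowest, that of ITGAD, was 0.00 without activin B replicate 3 and -0.17 without activin B replicate 1.

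ITGA4, which binds VCAM1 and fibronectin, was dim. It read 6.46, 6.50 and 6.46 in vehicle and 6.33, 6.38 and 6.27 in activin B. The groups did not overlap, with a log2 change of -0.15 ± 0.06 (SE; adjusted p = 0.918 by limma), but its second probe set had 0.07 and the mean of its 4 sets 0.00. ITGA9, its close relative, had a log2 change of -0.02. Without activin B replicate 3 it was 0.07, and without activin B replicate 1 it was -0.09.

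Laminin alpha chains, which carry the integrin-binding domains of the trimer, had changes of both signs. LAMA5, the alpha chain of the laminins found in most adult epithelial and vascular basement membranes, read 8.92, 8.92 and 9.15 in vehicle and 8.68, 8.76 and 9.0 in activin B. Replicate 3 was the highest array in both groups and brought the groups to overlap. The log2 change was -0.18 ± 0.09 (SE; 95% interval -0.37 to 0.00; adjusted p = 0.947 by limma). Without activin B replicate 3 it was -0.28 (adjusted p = 0.523), and without vehicle replicate 3 it was -0.11.

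The other 2 alpha chains had changes above 0 at dimmer signals. LAMA2, known from the basement membrane of muscle and nerve, read 6.33, 6.53 and 6.59 in vehicle and 6.71, 6.56 and 6.74 in activin B. LAMA4, an alpha chain of vessel walls, read 6.89, 6.51 and 6.71 in vehicle and 6.97, 6.75 and 6.86 in activin B. The groups overlapped in both genes. Their log2 changes of 0.19 ± 0.08 and 0.16 ± 0.09 (SE) did not pass (adjusted p = 0.907 and 0.982 by limma), and the changes of their other probe sets lay between -0.13 and 0.12. Single arrays weighed on both. LAMA2 ran from 0.11 without vehicle replicate 1 to 0.24 without vehicle replicate 3. LAMA4 ran from 0.06 without vehicle replicate 2 to 0.25 without vehicle replicate 1. LAMA1, a vascular niche factor that the study describes in endothelial cells, as it does INHBB, is outside the rule used here. In the cancer cells it had a log2 change of 0.10 (adjusted p = 0.995 by limma).

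In their representing sets the 4 beta chains all had log2 changes below 0, between -0.10 and -0.03, and in each the groups overlapped. The second LAMB1 set had 0.01. That of LAMB3 was 0.02 without activin B replicate 1 and 0.01 without vehicle replicate 2. LAMB1, the beta chain of most laminins of the early embryo and of vessels, read 9.23, 9.16 and 9.16 in vehicle and 9.21, 9.13 and 9.02 in activin B. LAMB3, which belongs to the epithelial laminin that anchors hemidesmosomes, read 9.50, 9.63 and 9.54 in vehicle and 9.43, 9.52 and 9.64 in activin B. LAMB2, with a change of -0.08, read 7.70, 7.63 and 7.65 in vehicle and 7.63, 7.61 and 7.49 in activin B. LAMB4, a dim gene, read 6.36, 6.39 and 6.28 in vehicle and 6.34, 6.19 and 6.19 in activin B. Other LAMB4 sets, also dim, had changes of -0.10 and -0.13 without overlap between groups. Neither passed (adjusted p = 0.986 and 0.934 by limma). LAMB4 is the next protein-coding gene to LAMB1 in the RefSeq order of GRCh38.p14, and their changes were -0.10 and -0.07. The other neighbouring members were ITGAM with ITGAX, at 0.04 and 0.06, and ITGAX with ITGAD, at 0.06 and -0.07.

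LAMC1, the gamma chain that most laminins share, read 9.89, 10.07 and 10.06 in vehicle and 10.07, 10.15 and 10.10 in activin B. Vehicle replicate 1 was the low array. The log2 change was 0.10 ± 0.07 (SE), 0.04 without that array and 0.13 without vehicle replicate 2. Its second, bright probe set had 0.07. LAMC3 had a change of 0.05. Its second set, below the median signal, had -0.11 without overlap between groups (adjusted p = 0.984 by limma), and the mean of its sets had -0.03.

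The genes of proteins that surround these receptors were also followed. Of 19 measured adhesion adaptors, 0 passed in either direction, with a median log2 change of 0.02. TLN1, which encodes talin, the adaptor that switches integrins on from inside the cell, read 7.07, 7.04 and 7.11 in vehicle and 7.18, 7.32 and 7.23 in activin B. FERMT2, a kindlin that acts with talin, read 9.71, 9.77 and 9.62 in vehicle and 9.82, 9.94 and 9.85 in activin B. Both had no overlap between groups and a log2 change of 0.17, and they were the 2 adaptors of 19 with an unadjusted p under 0.05, where the rate over all genes was 5.89% (smallest adjusted p = 0.858 by limma). The groups did not overlap in 4 of the 19, against 10.3% of all genes. The other two were VCL, which encodes vinculin, and TNS3, a tensin, each with a change of -0.09.

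Of 11 measured partners of laminin in the basement membrane and at the cell surface, 0 passed, with a median log2 change of 0.07. NID2, a nidogen that links laminin to collagen IV, and AGRN, which binds laminin and dystroglycan, had changes of -0.10 and 0.08. Of 11 measured integrin ligands, 0 passed, with a median of -0.02. FN1, a bright gene that encodes fibronectin, lay between 12.52 and 12.68 on all 6 arrays, with a change of -0.03. POSTN and NPNT, matrix ligands of integrins at dim signals, had changes of 0.15 and -0.12.

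The value of ITGB8 was followed through the processing alternatives, since it was the nearest of the 34 genes to the threshold. Its log2 change stayed below 0 in all 15, between -0.36 and -0.13. The adjusted p stayed above 0.05 in each, between 0.0722 with an intensity trend in the prior and 0.995 with the second probe set. Leaving out 1 array at a time gave changes between -0.36 and -0.28.

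**Figure D4:**
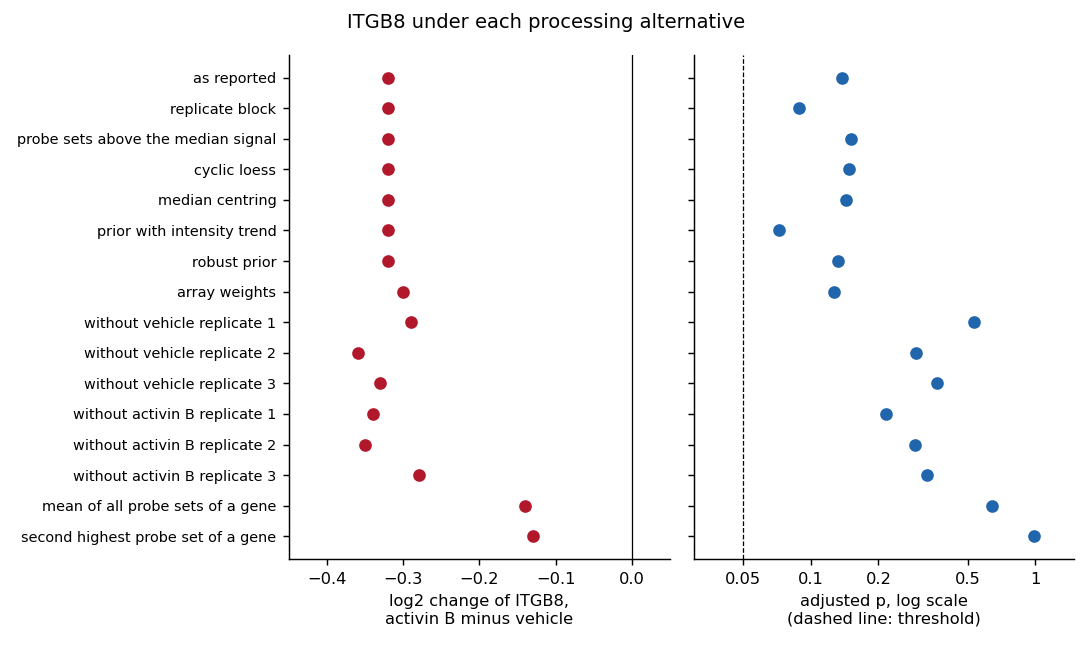
Log2 change of ITGB8, activin B minus vehicle (left), and its adjusted p on a log axis (right) as reported and under each of the 15 processing alternatives. The change stays near -0.3 with the bright probe set and is closer to 0, at -0.14 and -0.13, when the dim probe sets are averaged in or used alone; no adjusted p crosses the dashed line at 0.05.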

How the data were processed

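The authors normalized the scanner files of the 6 arrays by robust multiarray averaging in Chipster 3.8.0 and deposited log2 signals per probe set. RMA corrects background, forces a common distribution on the arrays and summarizes probes, so changes shared by most transcripts are removed and those near background are compressed. No scanner file was used here, and no scan batch was tested. Groups and replicate numbers come from the sample titles.

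Without the 62 array controls, 54613 probe sets were fitted with limma 3.58.1 in R 4.3.3 (linear model, empirical Bayes, the kind of test the methods name; residual degrees of freedom 4). Benjamini-Hochberg adjustment ran over the whole table, with calls under 0.05. The p-values rest on the spread of 3 arrays in each group, drawn by limma towards the spread typical of all probe sets. The prior degrees of freedom were 10.8, more than the residual 4, so the shared spread weighed more than a gene's own. Whether the arrays came from separate cultures is not given in the sources used here beyond the word biological. Errors of changes are model standard errors, and 95% intervals are from the same fit and not adjusted.

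Genes were named from the platform annotation; all 34 matched RefSeq by gene identifier. The members, role groups, pathway and marker lists were chosen with earlier results of these data known. Values of each array are given for the 12 members with the smallest p, for ITGB1 with the laminin-binding subunits, and for LAMB3, LAMA4, LAMA5, LAMB1 and LAMC1; of each pathway list the 2 genes with the smallest p are named, and ITGB5, FN1, VCL, TNS3 and the values of other probe sets were added after they were seen. Steps were tested on simulated arrays. The settings varied were a block for the replicate number, a filter on dim sets, cyclic loess, median centring, a trend or robust prior, array weights, other probe set rules and leaving out each array. Figures were drawn with matplotlib 3.10.9.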

Additional observations from a re-analysis of the deposited data

How the results depend on the processing

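No integrin or laminin gene passed under any of the 15 alternatives, in either direction, and the smallest adjusted p was 0.0722 (ITGB8, prior with an intensity trend). The median log2 change of the integrins stayed within the spread between arrays (SD 0.036) under all 15. That of the laminins, -0.03 as reported, was -0.08 with the second highest probe set. Under that rule the 10 genes with 1 probe set kept it, LAMA5, LAMB2 and LAMB3 among them. When single arrays were left out the laminin median ranged from -0.04 to 0.01 (SD 0.031 between arrays). It reached 0.01 when either vehicle replicate 2 or activin B replicate 1 was dropped, and the cause was not tested. ITGA4, at -0.15 as reported, was at 0.00 with the mean of its probe sets and at 0.07 with the second set. Of the 34 genes, 11 kept their sign under every alternative that could be computed and 23 changed it at least once, all with changes too small to be called. Among the 11, ITGA10, ITGAE, ITGAV, ITGB7, LAMA5 and LAMB2 have 1 probe set, so the other probe set rules could not move their change. With the filter on dim sets, 24 genes could be tested.

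With the replicate block the medians were -0.02 for integrins and -0.03 for laminins, 0 genes passed in each direction, and ITGB8 had an adjusted p of 0.0886. Over all probe sets the block raised the calls from 66 to 97. The deviations of same-numbered samples correlated at 0.16, 0.04 and 0.19, all positive. The titles give replicate numbers without saying that same-numbered samples belong together, so the fit as reported held no block. Whether same-numbered samples were prepared together was not tested. Dim signals limit what can be read for the 10 genes below the median, and may do so for genes just above it. Of the 3 muscle markers 1 lay below the median, and MYOG read 6.87. Of the 4 leukocyte markers 2 lay below it, and CD53 read 6.94. Members with signals in this range include ITGB3 (6.87) and ITGAD (6.80).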
